A study of Mus musculus with 9 samples.

Results

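The insulin-like growth factor (IGF) axis was followed in mouse primary renal tubular epithelial cells through 10 genes: the ligands Igf1 and Igf2, the receptors Igf1r and Igf2r, and the binding proteins Igfbp2, Igfbp3, Igfbp4, Igfbp5, Igfbp6 and Igfbp7. They were found by symbol among 31167 genes, and all 10 were present. The members were selected on the FPKM of Igfbp5 and Igf1, which change in opposite directions in the treated groups. The values of those 2 genes are therefore given as a description with no test in any comparison, and calls are counted over the other 8 members.

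The cells came from C57BL/6 kidneys, and RNA sequencing was done on 3 groups with 3 libraries each. Sham cells were the untreated comparison group. H/R cells were deprived of glucose under 1.0% oxygen for 6 h, after which complete medium and normal oxygen were given back for 18 h. EGR1OV cells carried a plasmid that drives Egr1, an immediate early transcription factor, from a cytomegalovirus promoter, delivered with the lipid reagent EndoFectin Max. In the study's figure legend for the sequencing, the plasmid and H/R were given to separate groups and Sham received neither. Its methods, however, describe plasmid transfection of primary tubular cells as a step ahead of H/R. The treatment text of the labels does not set the groups apart, so whether EGR1OV cells also had H/R is not settled. No group with an empty vector or with the reagent alone was among those compared, so plasmid, reagent and Egr1 cannot be told apart. Whether the 3 libraries of a group came from separate cultures or animals is not given, so p-values measure the spread between these libraries, which may be technical.

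IGF-1 and IGF-2 are secreted peptides that signal through the receptor tyrosine kinase encoded by Igf1r, by way of insulin receptor substrates, PI3 kinase and AKT. The receptor encoded by Igf2r carries lysosomal enzymes and takes up IGF-2 for degradation. The binding proteins hold IGFs outside the cell, and proteases that cut them set the ligand free. In the kidney, tubule cells carry the IGF-1 receptor and respond to IGF-1 with growth and survival signalling.

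Levels are given in FPKM (fragments per kilobase of transcript, divided by the size of the library), which are scaled to gene length and so can be compared between genes. Differences are given on the log2(FPKM + 1) scale, on which genes of low level move less than their ratio, and ratios of mean FPKM stand beside them. The depth recovered from the values was 16183617 to 18384022 reads per library. The EGR1OV label was checked on Egr1 itself, which averaged 42.6 ± 2.84 FPKM there, against 6.40 ± 0.443 in Sham and 7.88 ± 0.599 in H/R (SD, n = 3 each). Markers of tubule epithelium were plentiful, with a summed level over 9 genes of 1990 to 2040 FPKM in Sham, 1850 to 1930 under H/R and 1300 to 1400 in EGR1OV. Most of that sum was the keratins Krt8 (mean 1010, 941 and 618 FPKM) and Krt18 (685, 606 and 412 FPKM), while Cdh1 averaged 86.2, 90.9 and 102 FPKM and Pax8 13.1, 12.3 and 13.5 FPKM. Of the 9 tested, 1 was called higher and 3 lower in EGR1OV against Sham, beside 9.87% and 6.51% of all genes. Markers of mature proximal tubule were low: the 10 genes summed to 8.23 to 8.82 FPKM in Sham, 7.41 to 8.27 under H/R and 3.3 to 4.12 in EGR1OV. Of these, 3 of 3 tested were called lower in EGR1OV against Sham, beside 6.51% of all genes. Slc22a6 was at 0 in all 9 libraries, and so was Umod, the marker of the thick ascending limb.

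The promoters of 4 members are shown because these genes moved in different ways: Igf2r and Igfbp2 fell in EGR1OV, Igfbp3 rose in both treated groups, and Igfbp5 is the gene the set was chosen for. Each sequence is the 250 bases before the RefSeq transcript start, written 5′ to 3′ on the strand of the gene in build GRCm38.p6. Capitals mark the letters of the motifs searched, on either strand. Igf2r lies at chr17:12769707-12769956 on the minus strand, Igfbp2 at chr1:72824230-72824479 on the plus strand, Igfbp3 at chr11:7213924-7214173 on the minus strand and Igfbp5 at chr1:72874866-72875115 on the minus strand.
Igf2r: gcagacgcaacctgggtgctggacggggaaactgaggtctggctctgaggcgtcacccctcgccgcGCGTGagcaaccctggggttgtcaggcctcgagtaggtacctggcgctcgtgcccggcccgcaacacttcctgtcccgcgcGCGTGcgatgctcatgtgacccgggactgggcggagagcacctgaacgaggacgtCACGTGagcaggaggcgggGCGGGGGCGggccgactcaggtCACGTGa
Igfbp2: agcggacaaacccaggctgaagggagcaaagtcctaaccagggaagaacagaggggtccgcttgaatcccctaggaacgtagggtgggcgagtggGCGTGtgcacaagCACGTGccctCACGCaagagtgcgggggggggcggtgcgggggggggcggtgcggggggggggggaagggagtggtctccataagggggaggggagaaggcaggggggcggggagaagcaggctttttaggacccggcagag
Igfbp3: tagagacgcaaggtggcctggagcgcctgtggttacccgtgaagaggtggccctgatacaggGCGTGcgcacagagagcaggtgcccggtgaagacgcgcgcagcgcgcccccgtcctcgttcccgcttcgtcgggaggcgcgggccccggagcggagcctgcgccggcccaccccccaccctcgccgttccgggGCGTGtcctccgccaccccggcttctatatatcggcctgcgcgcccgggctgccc
Igfbp5: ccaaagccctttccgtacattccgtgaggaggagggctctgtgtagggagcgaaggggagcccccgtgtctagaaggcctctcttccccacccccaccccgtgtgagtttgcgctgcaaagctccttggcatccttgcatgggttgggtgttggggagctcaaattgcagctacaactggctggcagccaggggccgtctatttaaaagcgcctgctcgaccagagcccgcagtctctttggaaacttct

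All 10 members had at least 1 window, 14 in all. The Egr1 motif was searched as GCGTGGGCG or GCGGGGGCG, and either form was present in 3.06% of the 32851 windows in the promoter table. Among the members it was found in the Igf2r window alone, as GCGGGGGCG, 29 to 21 bases before the start. Other forms of the Egr1 site, such as the one the study tested at Sox9, were not searched. The core of the hypoxia response element was searched as ACGTG or GCGTG, and either was present in 38.6% of all windows. Both cores hold the letters CG, as do both Egr1 forms, and neither share was matched for GC content. Member windows ranged from 47.6% GC (a window of Igf2) to 77.6% (Igf1r), most of them above the median of 52.4% over all windows. ACGTG read on both strands overlaps with itself in the palindrome CACGTG, which occurs in the Igf2r window at 7 and at 48 bases before the start and in the Igfbp2 window. GCGTG was present in the windows of Igf1, Igf1r, Igf2r, Igfbp2, Igfbp3 and Igfbp7. The windows of Igfbp4, Igfbp5 and Igfbp6 held neither core. None of these motifs overlapped another kind of motif in the printed windows. A match is a run of letters and was not tested as a binding site. For Igf1 the window lies 2846 bases from the gene start in the deposited table.

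**Figure D1:**
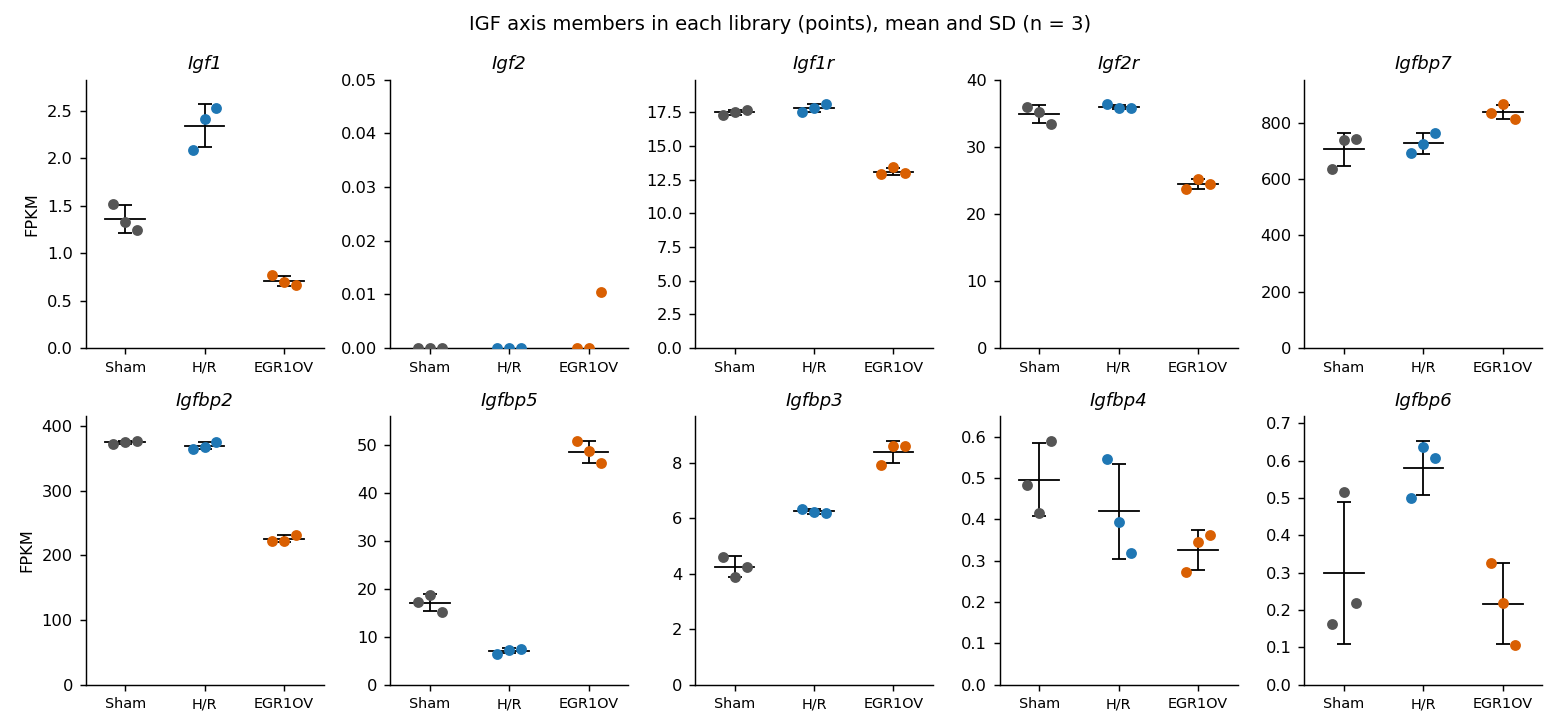
FPKM of the 10 members (y axis, linear from 0) in the Sham, H/R and EGR1OV groups; points are single libraries, and bars give the mean and SD (n = 3), left out for Igf2, which was at 0 in 8 of 9 libraries. Igfbp5 was lowest in H/R and highest in EGR1OV, Igf1 was highest in H/R and lowest in EGR1OV, and Igfbp2, Igf1r and Igf2r were lower in EGR1OV.

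In Sham, Igfbp7 and Igfbp2 stood far above the other members. Igfbp7 ranked 32 and Igfbp2 ranked 71 among the 31167 genes by mean FPKM. Igf2r followed at rank 1402, then Igf1r at 2927 and Igfbp5 at 2990, whose libraries overlapped, so the order of that pair is not resolved. Igfbp3 ranked 8100 and Igf1 ranked 11421. Igfbp4 and Igfbp6 were both under 0.6 FPKM in every Sham library with overlapping ranges, and Igf2 was at 0. In EGR1OV, Igfbp5 stood above both receptors at rank 996, and in H/R it stood below them at rank 6011.

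Igf1, the ligand made by many mesenchymal and myeloid cells, was present at a low level. Its 3 Sham libraries were at 1.52, 1.33 and 1.24 FPKM. The H/R libraries were at 2.09, 2.41 and 2.53 FPKM, and the EGR1OV libraries at 0.766, 0.692 and 0.666 FPKM. The groups did not overlap: every H/R library was above every Sham library, and every EGR1OV library below. Means were 1.36 ± 0.146, 2.34 ± 0.228 and 0.708 ± 0.0519 FPKM (SD, n = 3 each), or 1.72 times the Sham level in H/R and 0.519 times in EGR1OV. On the log2(FPKM + 1) scale this was +0.50 in H/R, −0.47 in EGR1OV and −0.97 between EGR1OV and H/R. The values rest on 111 to 445 reads per library.

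Macrophage genes were lower in EGR1OV, as Igf1 was. The summed level of 11 macrophage markers was 149 to 153 FPKM in Sham, 125 to 134 under H/R and 23.6 to 28.9 in EGR1OV. Of the 9 markers tested, 9 were called lower in EGR1OV and 2 in H/R against Sham, beside 6.51% and 2.65% of all genes. Lyz2, which encodes a lysozyme of myeloid cells, averaged 57.7, 47.1 and 5.46 FPKM in Sham, H/R and EGR1OV, and Csf1r, the receptor for macrophage colony-stimulating factor, 6.16, 5.92 and 1.94. In H/R, Igf1 was higher and the macrophage sum lower, but the markers did not all go 1 way. Most averaged lower than in Sham, while Tyrobp averaged 8.52 FPKM in Sham and 9.13 in H/R. Ptprc (0.47 and 0.495) and Itgam (0.182 and 0.218) also averaged slightly higher, within overlapping SDs. The part of macrophages in the Igf1 values was not tested. In bulk RNA, fewer cells of a type and less RNA per cell cannot be told apart.

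Igf2, the fetal growth ligand, was at 0 in 8 of 9 libraries, with 1 read in EGR1OV replicate 3. A count of 0 allows a level of up to 0.0285 to 0.0324 FPKM (3 reads per library), so a count of 0 does not exclude expression below that. These floors cover counting error only. The protein-coding gene Gm49394 overlaps Igf2 on the same strand and has no value here. How reads shared by overlapping genes were counted is not given. Igf1 was thus the ligand detected in all 9 libraries.

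Igf1r, the signalling receptor, lies at chr7:67952827-68233668 on the plus strand. It was at 17.3, 17.5 and 17.7 FPKM in Sham, 17.5, 17.8 and 18.1 in H/R, and 12.9, 13.4 and 13.0 in EGR1OV. Sham and H/R overlapped, and EGR1OV lay below both. In EGR1OV it fell to 0.749 times the Sham mean (−0.39 ± 0.0283 SE on the log2 scale, limma adjusted p = 3.98e-06). The difference between H/R and Sham was 0.03 with a 95% interval of −0.04 to 0.09 (limma adjusted p = 0.600).

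Igf2r, the receptor for IGF-2 and mannose 6-phosphate, lies at chr17:12682406-12769664 on the minus strand. Its libraries were at 35.9, 35.2 and 33.4 FPKM in Sham, at 36.4, 35.8 and 35.8 under H/R and at 23.8, 25.3 and 24.5 in EGR1OV. As with Igf1r, Sham and H/R overlapped and EGR1OV was lower. Igf2r fell to 0.704 times the Sham mean in EGR1OV (−0.49 ± 0.0342 SE, limma adjusted p = 3.08e-06), and its change in H/R was 0.05 with an interval of −0.03 to 0.12. The antisense transcript Airn overlaps it on the opposite strand at no more than 1.49 FPKM, and whether reads were counted by strand is not stated.

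Igfbp2, which binds IGF-2 with preference over IGF-1, was the most abundant of the high-affinity binding proteins. It was at 373, 375 and 377 FPKM in Sham, 365, 368 and 376 in H/R, and 223, 223 and 232 in EGR1OV. The EGR1OV libraries were far below the other 6. The mean fell from 375 ± 2.26 to 226 ± 5.14 FPKM (SD, n = 3 each), 0.602 times the Sham level, with a log2 change of −0.73 ± 0.0238 SE (limma adjusted p = 1.29e-08). In H/R the change was −0.02 with an interval of −0.07 to 0.03, and its sign turned under the other scalings of the libraries (0.021 and 0.031).

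Igfbp5, which binds IGFs and the extracellular matrix, is the neighbour of Igfbp2 on chromosome 1. Igfbp2 spans chr1:72824503-72852474 on the plus strand and Igfbp5 chr1:72857932-72874884 on the minus strand, so their 3′ ends face each other across 5457 bases. Igfbp5 was at 17.3, 18.8 and 15.2 FPKM in Sham. It was at 6.47, 7.28 and 7.50 FPKM in H/R and at 50.8, 48.8 and 46.3 FPKM in EGR1OV. The groups were well apart, and the H/R libraries lay below Sham while the EGR1OV libraries lay above it. Mean levels were 17.1 ± 1.78, 7.08 ± 0.542 and 48.6 ± 2.27 FPKM (SD, n = 3 each), a ratio to Sham of 0.414 in H/R and of 2.84 in EGR1OV. The log2 differences were −1.16, +1.46 and, between EGR1OV and H/R, +2.62. At least 629 reads stood behind each value. In EGR1OV the neighbours went in opposite directions, Igfbp2 lower and Igfbp5 higher, while in H/R Igfbp5 was lower and the Igfbp2 libraries overlapped with Sham.

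Igfbp3, the main carrier of IGFs in plasma, was low in Sham at 4.62, 3.88 and 4.26 FPKM. It was at 6.34, 6.24 and 6.18 FPKM in H/R and at 7.93, 8.62 and 8.62 FPKM in EGR1OV. Both treated groups lay above Sham, and EGR1OV lay above H/R. Igfbp3 rose to 1.47 times the Sham mean in H/R (+0.47 ± 0.0558 SE, limma adjusted p = 0.00178) and to 1.97 times in EGR1OV (+0.84, limma adjusted p = 2.21e-06). Between EGR1OV and H/R the difference was +0.37 (ratio 1.34, limma adjusted p = 0.000446), just under the threshold of 1.3-fold on the log2(FPKM + 1) scale. It passed that threshold at 0.38 without H/R replicate 1 and at 0.408 without EGR1OV replicate 1. Igfbp3 and Igfbp1 also lie tail to tail, on chromosome 11 with 3539 bases between them. Igfbp1, the insulin-regulated binding protein of liver, had 9 reads over all 9 libraries.

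The summed level of 10 fibroblast markers was 37.4 to 39.2 FPKM in Sham, 45.3 to 45.7 under H/R and 41.8 to 46.3 in EGR1OV. Most of it was Col1a1 (mean 21.1, 25.8 and 25.7 FPKM) and Col1a2 (7.22, 9.28 and 10.2 FPKM), and Thy1 averaged 0.881, 0.684 and 0.336 FPKM. Pdgfrb averaged 4.2, 3.43 and 3.81 FPKM and Postn 3.83, 4.82 and 3.4. Dcn, Lum, Pdgfra and Dpt were at or near 0, with no group mean above 0.229 FPKM. Of 6 fibroblast markers tested, 3 were called higher in H/R, and 1 higher and 1 lower in EGR1OV. Over all genes, 1.60% were called higher in H/R, and 9.87% higher and 6.51% lower in EGR1OV. The summed level of 7 endothelial markers was 10.7 to 11.1, 11.3 to 11.6 and 7.86 to 8.38 FPKM. The proximal tubule sum given above was also lower in EGR1OV, as Igf1r, Igf2r and Igfbp2 were. The part of any of these cells in the receptor and binding protein values was not tested.

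Igfbp7, a secreted protein with low affinity for IGFs that is shed by stressed tubule cells, was the most abundant member. It was at 636, 737 and 741 FPKM in Sham, 692, 724 and 764 in H/R, and 833, 866 and 814 in EGR1OV. Sham and H/R overlapped, and all EGR1OV libraries were higher than the other 6. The difference between EGR1OV and Sham was +0.25 ± 0.061 SE (ratio 1.19, limma adjusted p = 0.00788), under the threshold of 1.3-fold. It passed with quantile normalization, at 0.431. In H/R the difference was +0.05 with an interval of −0.09 to 0.18, and −0.026 without Sham replicate 1. Polr2b overlaps Igfbp7 on the opposite strand at up to 21.9 FPKM.

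Igfbp4 and Igfbp6 were below the filter of a mean of 0.5 FPKM and were not tested. Igfbp4, a binding protein that inhibits IGF action until it is cut by PAPP-A, was at 0.482, 0.416 and 0.590 FPKM in Sham. The H/R libraries were at 0.546, 0.394 and 0.319 FPKM and the EGR1OV libraries at 0.273, 0.346 and 0.363 FPKM. Each EGR1OV library was below each Sham library, and H/R overlapped both, on 20 to 43 reads per library. Igfbp6, which prefers IGF-2, was at 0.164, 0.516 and 0.218 FPKM in Sham. It was at 0.5, 0.636 and 0.608 in H/R and 0.325, 0.220 and 0.107 in EGR1OV, on 2 to 13 reads. With no filter on low values, Igfbp6 was lower in EGR1OV than in H/R (−0.38 ± 0.109 SE, limma adjusted p = 0.0366).

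Of the 8 members not picked for their values, 5 were tested. In H/R against Sham, 1 was called, Igfbp3, higher, against a background of 4.25% of all 13985 genes tested, 1.60% higher and 2.65% lower. In EGR1OV against Sham, 4 were called, with Igfbp3 higher and Igf1r, Igf2r and Igfbp2 lower, against a background of 16.4%, made up of 9.87% higher and 6.51% lower. In EGR1OV against H/R, 3 were called, all lower: Igfbp2 (−0.71, limma adjusted p = 1.54e-08), Igf2r (−0.53, limma adjusted p = 1.57e-06) and Igf1r (−0.42, limma adjusted p = 2.40e-06), against 18.9%, made up of 11.9% higher and 6.94% lower. With the adjusted p alone and no fold threshold, 1, 5 and 5 of the tested members passed in these comparisons, and 11.7%, 45.9% and 51.0% of all genes. The comparisons against Sham use the same Sham libraries. Groups of 3 that do not overlap were common over all genes: 33.6% of genes in H/R against Sham, 55.7% in EGR1OV against Sham and 58.6% in EGR1OV against H/R.

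**Figure D2:**
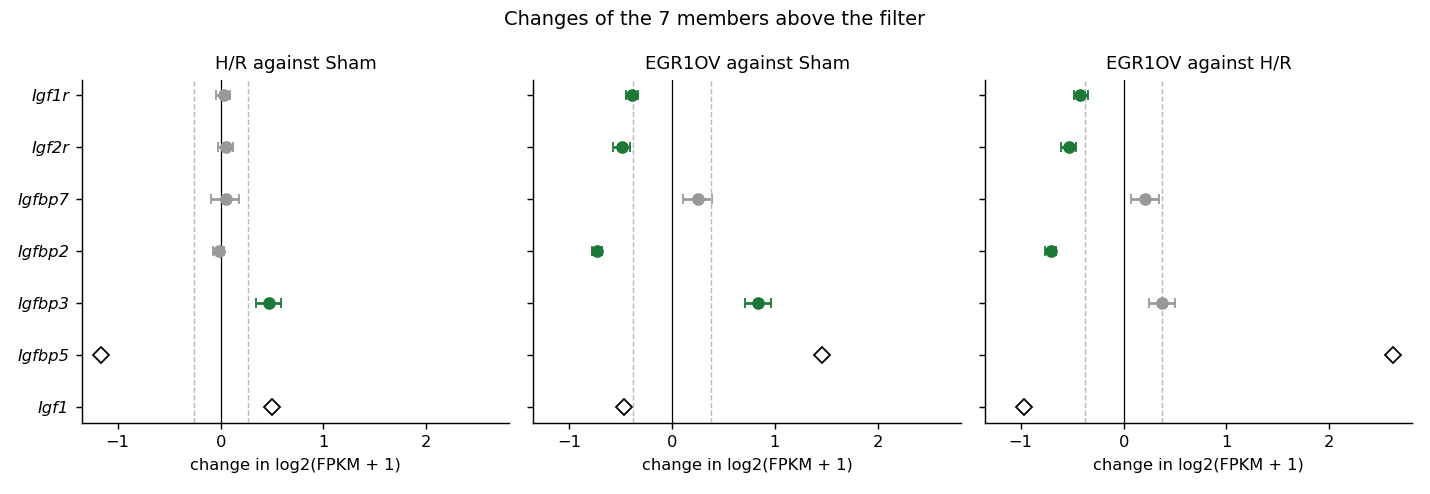
Change in log2(FPKM + 1) of the 7 members above the filter in the 3 comparisons; circles with 95% intervals are tested members, green where called and grey where not, open diamonds are Igfbp5 and Igf1, which were not tested, and dashed lines mark the fold threshold. Igfbp3 was the tested member called in H/R against Sham (+0.47), and Igf1r, Igf2r and Igfbp2 lay below the lower line in both comparisons of EGR1OV.

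The make-up of the binding protein transcripts differed between the groups. The sum of Igfbp1 to Igfbp6 went from 397 ± 1.53 FPKM (SD, n = 3, as for the values that follow) in Sham to 384 ± 6.11 under H/R and to 283 ± 3.21 with the Egr1 plasmid. Igfbp2 made up 94.4 ± 0.416% of that sum in Sham, 96.3 ± 0.0577% under H/R and 79.7 ± 0.907% in EGR1OV. Igfbp5 made up 4.31 ± 0.445%, 1.84 ± 0.116% and 17.2 ± 0.971%. Per Igfbp5 transcript there were 22.1 ± 2.46 of Igfbp2 in Sham, 52.3 ± 3.44 under H/R and 4.65 ± 0.32 in EGR1OV. Since Igfbp5 chose the set, these shares are a description and were not tested. With Igfbp7 included, the sum averaged 1100 FPKM in Sham, 1110 under H/R and 1120 in EGR1OV.

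**Figure D3:**
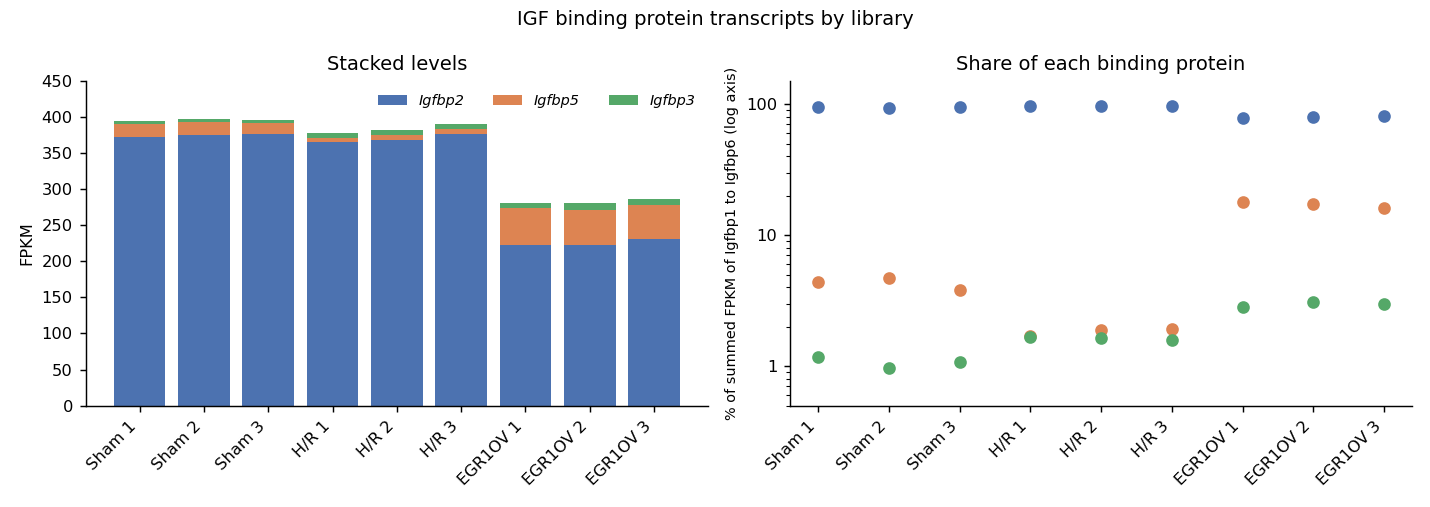
Igfbp2, Igfbp5 and Igfbp3 in each of the 9 libraries: stacked FPKM on a linear axis from 0 (left) and share of the summed FPKM of Igfbp1 to Igfbp6 on a log axis (right). In EGR1OV the stack was lower, near 283 FPKM, and the Igfbp5 share was 17.2% against 4.31% in Sham and 1.84% in H/R.

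Genes whose pattern over the 9 libraries was most like that of Igfbp5, by Pearson's r of log2(FPKM + 1) among 7587 genes, were Rec8, a meiotic cohesin subunit (r = 0.9954), Aars, the alanyl-tRNA synthetase (r = 0.9950), and Rbm33, an RNA-binding protein (r = 0.9905). Rec8 averaged 6.73 ± 0.165 FPKM in Sham, 4.46 ± 0.329 under H/R and 11.2 ± 0.766 in EGR1OV, and Aars 39.6 ± 0.249, 33.6 ± 0.312 and 48.5 ± 0.697. For Igf1 they were Bmpr2, a type II receptor for bone morphogenetic proteins (r = 0.9919), Slc4a7, a sodium bicarbonate cotransporter (r = 0.9901), and Pmepa1, a membrane protein that restrains TGF-β signalling (r = 0.9886). Bmpr2 averaged 14.3 ± 0.31, 17.4 ± 1.27 and 11.3 ± 0.329 FPKM. The points are 9 libraries in 3 groups, so these values describe differences between the groups more than the spread within them.

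The wider pathway was read from a list of 67 genes, of which 65 were in the table and 55 passed the filter. In H/R against Sham, 4 were called, 1 higher and 3 lower, 7.27% of those tested beside the background of 4.25%. The split was 1 and 1 under median-ratio scaling and 1 and 2 under quantile normalization. In EGR1OV against Sham, 8 were called, 3 higher and 5 lower (2 and 6 under both other scalings), 14.5% beside 16.4%. In EGR1OV against H/R it was 13, 6 higher and 7 lower (3 and 8 under both other scalings), 23.6% beside 18.9%. The median log2 change of the list was −0.037, 0.079 and 0.138 in the 3 comparisons, and that of all genes −0.03, 0.017 and 0.055. Over all genes the direction of the calls also moved with the scaling: 37.7% of the genes called in H/R against Sham were higher as deposited, 58.2% under median-ratio scaling and 56.5% under quantile normalization. In EGR1OV against Sham these shares were 60.3%, 54.9% and 45.9%, and in EGR1OV against H/R 63.2%, 51.0% and 42.5%.

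Proteases that cut the binding proteins, and their inhibitors, gave 5 tested genes of 8, of which 1 was called in H/R and 3 in EGR1OV against Sham (20% and 60% of those tested, beside 4.25% and 16.4% of all genes). Pappa encodes PAPP-A, a metalloprotease that cuts IGFBP-4 and IGFBP-5. It was at 2.60, 2.51 and 2.2 FPKM in Sham, 3.41, 3.33 and 3.26 in H/R, and 1.45, 1.46 and 1.59 in EGR1OV. It rose in H/R (+0.34 ± 0.0584 SE, limma adjusted p = 0.00847) and fell in EGR1OV (−0.46 ± 0.0584 SE, limma adjusted p = 0.000185), with no overlap between any groups. Htra1, a secreted serine protease, was at 50.1, 50.7 and 50.4 FPKM in Sham and 27.7, 30.4 and 30.3 in EGR1OV, a change of −0.76 (limma adjusted p = 2.15e-07). In H/R it averaged 53.3 ± 1.01 FPKM (+0.08, limma adjusted p = 0.191). C1s1, a complement serine protease that can cut IGFBP-5, was at 1.13, 1.01 and 0.910 FPKM in Sham, 1.24, 1.13 and 1.28 in H/R, and 4.95, 5.16 and 5.20 in EGR1OV. It rose 5.03-fold in EGR1OV (+1.60, limma adjusted p = 3.33e-08), and the EGR1OV libraries were far above the rest. Stc2, an inhibitor of PAPP-A, averaged 2.83 ± 0.142, 2.80 ± 0.424 and 2.25 ± 0.138 FPKM and was not called (EGR1OV against Sham −0.24, limma adjusted p = 0.0405, under the fold threshold). Against H/R, EGR1OV was higher for C1s1 (+1.46, limma adjusted p = 6.3e-08) and lower for Htra1 (−0.84, limma adjusted p = 9.96e-08) and Pappa (−0.79, limma adjusted p = 4.11e-06). These 3 calls were 60% of those tested, beside 18.9% of all genes.

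Other receptors gave 4 tested genes of 5, none called against Sham, where the background was 4.25% and 16.4%. With the adjusted p alone, 2 of the 4 passed in EGR1OV against Sham, beside 45.9% of all genes. Insr, the insulin receptor, averaged 4.85 ± 0.161 FPKM in Sham, 4.47 ± 0.121 under H/R and 4.45 ± 0.0855 in EGR1OV. In EGR1OV against H/R, 1 of the 4 was called (25%, beside 18.9% of all genes). Lrp1, an endocytic receptor that binds IGFBP-3, was higher in EGR1OV than in H/R (32.5 ± 2.46 against 23.7 ± 0.159 FPKM, +0.43, limma adjusted p = 9.84e-05). The Lrp1 difference from H/R fell under the fold threshold with median-ratio scaling (0.365) and quantile normalization (0.339). Between EGR1OV and Sham it was +0.34 (Sham 25.4 ± 1.05 FPKM, limma adjusted p = 0.000526), under the fold threshold.

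Among 13 tested adaptors and regulators close to the receptor, 1 was called in H/R and 3 in EGR1OV against Sham, all lower. These were 7.69% and 23.1% of those tested, beside 4.25% and 16.4% of all genes called in either direction. The shares of all genes called lower were 2.65% and 6.51%. Grb14 and Grb10 encode adaptors that bind insulin and IGF-1 receptors and restrain them. Grb14 was at 3.71, 3.44 and 3.61 FPKM in Sham, 2.76, 2.70 and 2.95 in H/R, and 2.06, 1.85 and 1.58 in EGR1OV. The 3 groups did not overlap. It fell in EGR1OV (−0.70, limma adjusted p = 3.02e-05). In H/R the change was −0.27 (limma adjusted p = 0.0353), and that call was lost without any single Sham or H/R library, with an adjusted p of up to 0.103. The call was also lost with median-ratio scaling (−0.239) and quantile normalization (−0.233), both under the fold threshold. It was lost too with no filter on low values (limma adjusted p = 0.0908) and without EGR1OV replicate 2 (limma adjusted p = 0.0504). Grb10 averaged 30.6 ± 1.08, 30.7 ± 1.06 and 21 ± 0.356 FPKM and fell in EGR1OV (−0.52, limma adjusted p = 2.59e-06). Irs2, a docking protein of the receptors, fell there from 3.25 ± 0.0873 to 2.12 ± 0.178 FPKM (−0.45, limma adjusted p = 0.000112), while Irs1 averaged 2.88 ± 0.202 FPKM in Sham and 3.78 ± 0.303 in EGR1OV, a difference of +0.30 under the fold threshold (limma adjusted p = 0.0025). In EGR1OV against H/R, 4 of the 13 were called, all lower (30.8%, beside 18.9% of all genes called in either direction). EGR1OV was lower there for Grb10 (−0.52, limma adjusted p = 2.38e-06), Grb14 (−0.43, limma adjusted p = 0.000603) and Irs2 (−0.40, limma adjusted p = 0.000193). Without EGR1OV replicate 3 the Grb14 and Irs2 differences were −0.365 and −0.378, under the threshold. Socs2, a feedback inhibitor of growth hormone signalling, was lower in EGR1OV than in H/R (−0.41, limma adjusted p = 0.000486). Without H/R replicate 3 or EGR1OV replicate 3 the difference was −0.377 and −0.378, under the threshold.

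In the PI3K, AKT, mTOR and FoxO branch, 26 genes were tested, and 2 were called in each comparison against Sham (7.69%, beside 4.25% and 16.4%). Trib3, a stress-induced pseudokinase that binds AKT, was at 15.8, 17.6 and 17.6 FPKM in Sham, 12.5, 10.8 and 10.2 in H/R, and 24.2, 24.1 and 24.4 in EGR1OV. It fell in H/R (−0.56, limma adjusted p = 0.00171) and rose in EGR1OV (+0.49, limma adjusted p = 0.000273), in the same order of groups as Igfbp5. Eif4ebp1, a repressor of translation that mTORC1 inactivates, fell in H/R from 48.9 ± 1.25 to 39.5 ± 1.61 FPKM (−0.30, limma adjusted p = 0.00454), and under median-ratio scaling its change of −0.261 missed the fold threshold. Foxo1, a transcription factor that AKT keeps out of the nucleus, rose in EGR1OV from 5.12 ± 0.0375 to 7.01 ± 0.373 FPKM (+0.39, limma adjusted p = 7.85e-05). The Foxo1 change fell under the threshold with both other scalings (0.361 and 0.301), without EGR1OV replicate 1 (0.367) and without EGR1OV replicate 2 (0.368).

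In the comparison of EGR1OV with H/R, 5 of the 26 genes of this branch were called, 4 higher and 1 lower. That was 19.2% of those tested, near the 18.9% of all genes. Trib3 was higher (+1.06, limma adjusted p = 1.45e-06), and so was Tsc1, an inhibitor of mTORC1 (5.19 ± 0.114 against 3.19 ± 0.202 FPKM, +0.56, limma adjusted p = 1.89e-05). Foxo3, a transcription factor of the same family as Foxo1, was higher by 0.38 (limma adjusted p = 0.000101). It fell under the threshold with the other scalings (0.317 and 0.253), without EGR1OV replicate 2 (0.351) and without H/R replicate 1 (0.337). Pik3cb, a catalytic subunit of PI3 kinase, was lower (15.8 ± 0.766 against 21.9 ± 0.312 FPKM, −0.45, limma adjusted p = 7.32e-06).

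**Figure D4:**
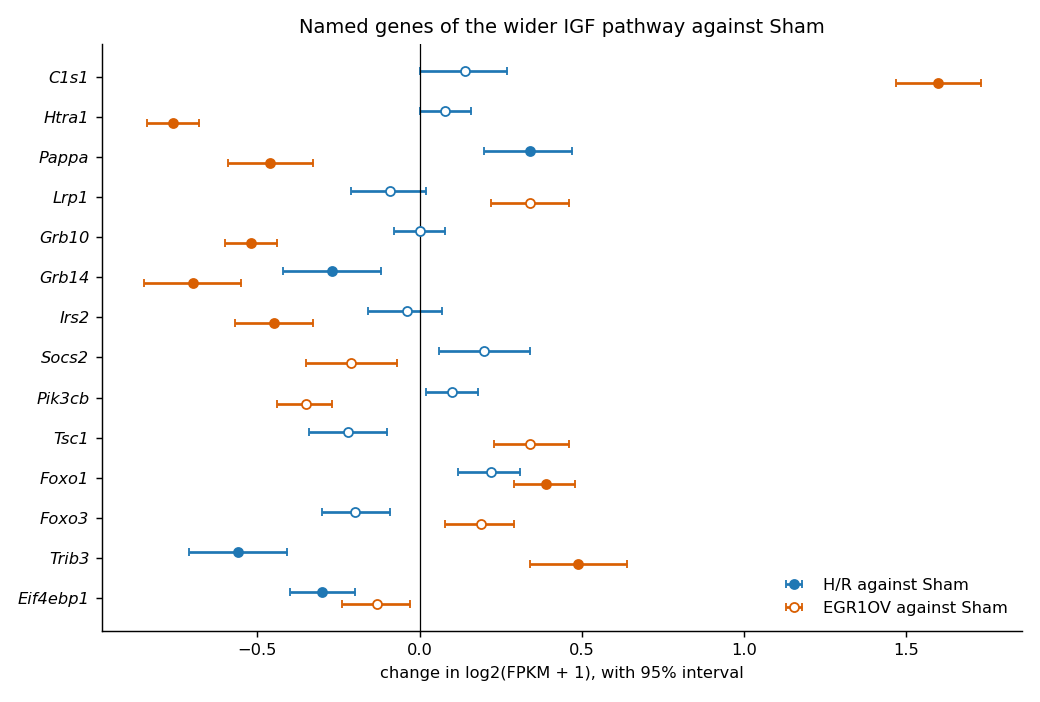
Change in log2(FPKM + 1) against Sham, with 95% intervals, of the named genes of the wider pathway, in blue for H/R and orange for EGR1OV; filled circles were called and open circles were not. Pappa was called higher in H/R (+0.34) and lower in EGR1OV (−0.46), Trib3 lower in H/R (−0.56) and higher in EGR1OV (+0.49), and C1s1 lay far to the right in EGR1OV (+1.60).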

How the data were processed

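Total RNA was sequenced on an Illumina instrument. The authors deposited FPKM per gene for 9 libraries, with no pooling. The submitters' processing notes name Bowtie2 2.2.3, HISAT2 2.1.0, TopHat2 and mm9, whereas 94.6% of gene positions in the table equal GENCODE M21 (GRCm38), as do those of all members, so coordinates are given as deposited. The counter and its strand setting are not given in the sources used here. FPKM times exon length gave reads that were whole within 0.02 for 94.0% of 162950 values of 1 to 1000 reads. A date in place of a symbol was repaired in 26 rows from the gene identifier.

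Groups came from the sample titles. The 13985 genes that averaged 0.5 FPKM or more were tested as log2(FPKM + 1) in a single limma fit of all 9 libraries (limma 3.58.1, R 4.3.3; trend, two-sided, Benjamini-Hochberg over all genes tested), which was tested on simulated data. Calls needed an adjusted p below 0.05 together with a fold on that scale of 1.2 (H/R against Sham) or 1.3 (both comparisons of EGR1OV). Both folds against Sham follow the study, and the fold between the treated groups was set here. Adjusted p-values come from this fit unless another is named. The members and lists were chosen with earlier results of these data known.

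Named from the pathway list were genes called in a comparison, with no overlap of groups and at least 1 FPKM in the higher group, up to 8 in each direction; Insr, Irs1 and Stc2 were added after their values were seen. Of the list, Ins1 and Ins2 were not analysed here. Another gene of the list is counted but not reported here. Alternatives covered the pseudocount, the filter, scaling, the replicate block, the trend, the groups in the fit, the fold threshold and each library left out. Promoters came from the RefSeq table, with motif letters searched on both strands. Marker lists of 5 podocyte genes (18.4 to 23.6 FPKM summed) and 6 genes of later nephron segments (1.24 to 1.81 FPKM) completed the check of cell types.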

Additional observations from a re-analysis of the deposited data

How the results depend on the processing

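The count of members called was 1 in H/R against Sham under every alternative. In EGR1OV against Sham it was 4, and 5 with quantile normalization and with no fold threshold. In EGR1OV against H/R it was 3, 4 with a pseudocount of 0.1, with no filter on low values and with voom, and 5 with no fold threshold. The count over the pathway list moved more. In H/R against Sham it was 4, and 2 with a mean of at least 5 FPKM, 2 with median-ratio scaling and 11 with no fold threshold. The other alternatives gave 3 to 5. In EGR1OV against Sham it was 8, and 4 with the higher filter, 15 with voom on the recovered reads (chosen after seeing the data) and 37 with no fold threshold. With a pseudocount of 0.1 that count was 12. In EGR1OV against H/R it was 13, and 8 with the higher filter and 41 with no fold threshold. Smaller moves of this last count are not all listed. Fewer genes entered the test under the higher filter; otherwise the cause was not tested. Leaving out each library in turn gave 1, 4 and 3 to 4 members and 3 to 4, 7 to 9 and 12 to 13 listed genes in the 3 comparisons. The sign turned for Igfbp2 in H/R (0.021 with median-ratio scaling and 0.031 with quantile normalization) and for Igfbp7 in H/R (−0.026 without Sham replicate 1, in a range of −0.026 to 0.085 over libraries left out), and neither was called. With a pseudocount of 0.1 the Igf1 differences were 0.74, −0.854 and −1.594. Called over all genes were 594, 2291 and 2641, and with voom 995, 3010 and 3532. Same-numbered libraries did not deviate together (correlations of −0.021 to 0.062 over 9 pairs, and 3 of 9 libraries closest to their own number), so the numbers were not taken as pairing. With the replicate block 516, 2309 and 2654 genes were called, and the Grb14 call in H/R was lost (limma adjusted p = 0.0621). Depth limited Igf2, Igfbp1, Igfbp4 and Igfbp6, which had at most 43 reads in a library.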
